A study of Homo sapiens with 6 samples.

Results

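The genes described here encode the cholesterol synthesis enzymes and the proteins that sense, move and export sterols, 31 genes taken by name from a table of 22153 genes. All 31 were found in the table. They comprise 4 synthesis enzymes that consume molecular oxygen, 9 enzymes of the pathway up to squalene and 6 later enzymes that use no oxygen. The 9 include GGPS1, which makes geranylgeranyl diphosphate for the isoprenoid branch and not squalene. The rest are 5 genes of the sterol regulatory element-binding protein (SREBP) control system, 5 of sterol transport and uptake, and 2 efflux transporters. EA.hy926 cells are a human hybrid of an umbilical vein endothelial cell and A549, a line from a lung carcinoma. Polyadenylated RNA was sequenced in 3 normoxia libraries, from cells kept at 20% oxygen, and in 3 hypoxia libraries, from cells given 1% oxygen for 8 h. All cells were grown in high-glucose medium with serum and were near confluence before the oxygen was changed. Nothing in the labels tells separate cultures from repeated preparations of one culture, so the p-values speak only to the spread among these libraries, and that spread may be technical. The comparison asks which of these transcripts changed with 8 h of hypoxia.

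Cholesterol is built from acetyl-CoA through mevalonate and squalene, and several of its later steps, among them the epoxidation of squalene before the rings close and the removal of methyl groups after it, need molecular oxygen as a substrate. When membrane sterol is low, SCAP carries the SREBPs from the endoplasmic reticulum to the Golgi, where they are cut to release transcription factors that switch on most of the pathway. When sterol is high, INSIG1 and INSIG2 hold SCAP back in the endoplasmic reticulum. INSIG2 has been described as a target of HIF, the hypoxia-inducible factors that accumulate when oxygen is low.

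Promoter sequence is shown for 2 genes: INSIG2, because the comparison turns on it, and SREBF2, because its window was the only member window with the sterol motif searched. RefSeq promoter windows (GRCh38.p14) were found for 26 of the 31 genes, and the 250 bases before the transcript start were searched on both strands. Capitals mark the hypoxia response core, ACGTG or GCGTG on either strand, in INSIG2 and the sterol regulatory element TCACNCCAC in SREBF2. The INSIG2 window is chr2:118088221-118088470 and the SREBF2 window chr22:41832855-41833104, both on the plus strand and printed 5′ to 3′.
INSIG2: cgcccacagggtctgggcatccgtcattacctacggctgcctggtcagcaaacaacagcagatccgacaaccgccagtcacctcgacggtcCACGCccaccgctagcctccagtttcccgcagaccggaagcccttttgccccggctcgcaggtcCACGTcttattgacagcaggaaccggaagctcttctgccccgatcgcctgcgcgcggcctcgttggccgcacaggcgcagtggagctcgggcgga
SREBF2: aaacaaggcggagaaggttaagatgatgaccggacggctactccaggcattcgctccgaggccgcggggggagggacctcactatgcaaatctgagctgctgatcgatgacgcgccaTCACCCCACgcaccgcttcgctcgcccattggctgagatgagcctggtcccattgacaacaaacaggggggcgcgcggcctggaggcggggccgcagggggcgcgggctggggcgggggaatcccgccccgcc
The INSIG2 window held 2 hypoxia response cores, and such a core was found in 20 of the 26 genes (76.9%), beside 47.4% of 27305 genes with a window. The sterol element, searched only as TCACNCCAC, was found in 1 of 26 (3.85%), beside 1.09% of all genes. Elements of another sequence or outside the 250 bases were not counted. The NF-Y box CCAAT, bound by a common partner of SREBPs, was found in 19 of 26 (73.1%), beside 37.0% of all genes. The cores and the box are short, and a match describes letters in this window, not a bound site.

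Reads assigned to genes numbered 17226736 to 18652704 per library. The values given are the authors' size-factor-scaled reads, which are read counts divided by 1 factor per library. The label of hypoxia was checked on 15 HIF target genes, with no filter on low values. All 15 had higher scaled reads in every hypoxia library than in any normoxia library, beside 4.76% of tested genes. ANGPTL4, PFKFB4 and BNIP3 rose 32.1-fold, 12.8-fold and 11.2-fold by the ratio of group means (limma, adjusted p = 0.00762, 0.0236 and 0.00207). BNIP3 passed under all 13 alternative settings. ANGPTL4 no longer passed without hypoxia replicate 3 (log2 difference 4.99), nor PFKFB4 with no filter on low values (3.62) or without normoxia replicate 1 or 2 (3.75 and 3.84) or hypoxia replicate 2 or 3 (3.41 and 3.52). Of 10 endothelial markers 8 passed the filter on low values, while CLDN5 and EMCN had at most 5.30 scaled reads in any library, and the keratins KRT8 and KRT18 of the epithelial list were abundant. Summed endothelial markers ran from 47339 to 102769 scaled reads in normoxia and from 54437 to 140573 in hypoxia, and summed epithelial markers from 30475 to 42701 and from 26172 to 42708. Fibroblast markers summed to at most 23.8 scaled reads, and leukocyte markers to between 504 and 1073, most of it LAPTM5. Fewer cells of a kind and less RNA per cell cannot be told apart in these bulk libraries. The libraries also differed in how read counts depended on the GC content of the gene. Per 10 percentage points of GC, log2 values shifted by 0.36, 0.09 and -0.44 in normoxia replicates 1, 2 and 3. In hypoxia replicates 1, 2 and 3 they shifted by -0.16, 0.28 and -0.13. Some results below are therefore also given after a within-library correction for GC content. Where the text gives no corrected value, the correction may still have changed the difference or its SE. The plot of log2 differences with their intervals shows both fits for the tested sterol genes.

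Most sterol genes differed little between conditions, and INSIG2 was the member with the largest difference. Of the 31 genes, 30 passed the filter on low values and were tested with limma among 10246 genes, and 0 passed the threshold, an adjusted p below 0.05. The share of all tested genes past it was 0.0976%. INSIG2 was the 1 member with an unadjusted p under 0.05, beside 275 of all 10246 genes. By chance alone 512 of all tested genes would be under it, so a lack of calls does not show a lack of change. edgeR and DESeq2 on the recovered reads also called 0 members, beside 0.0976% and 0.488% of all tested genes. After the GC correction 1 member, INSIG2, passed, beside 0.264% of all tested genes. Of the 30 log2 differences, 14 were positive and 16 negative, with a median of -0.03 beside 0.0037 over all tested genes. Leaving INSIG2 aside, the other 29 ran from -0.50 (TM7SF2) to 0.78 (CYP51A1), and the 95% interval of each included 0. The groups did not overlap for INSIG2, which was higher in hypoxia, beside 4.76% of tested genes, and for MVD, MVK and SQLE, which were lower, beside 2.71%.

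**Figure D1:**
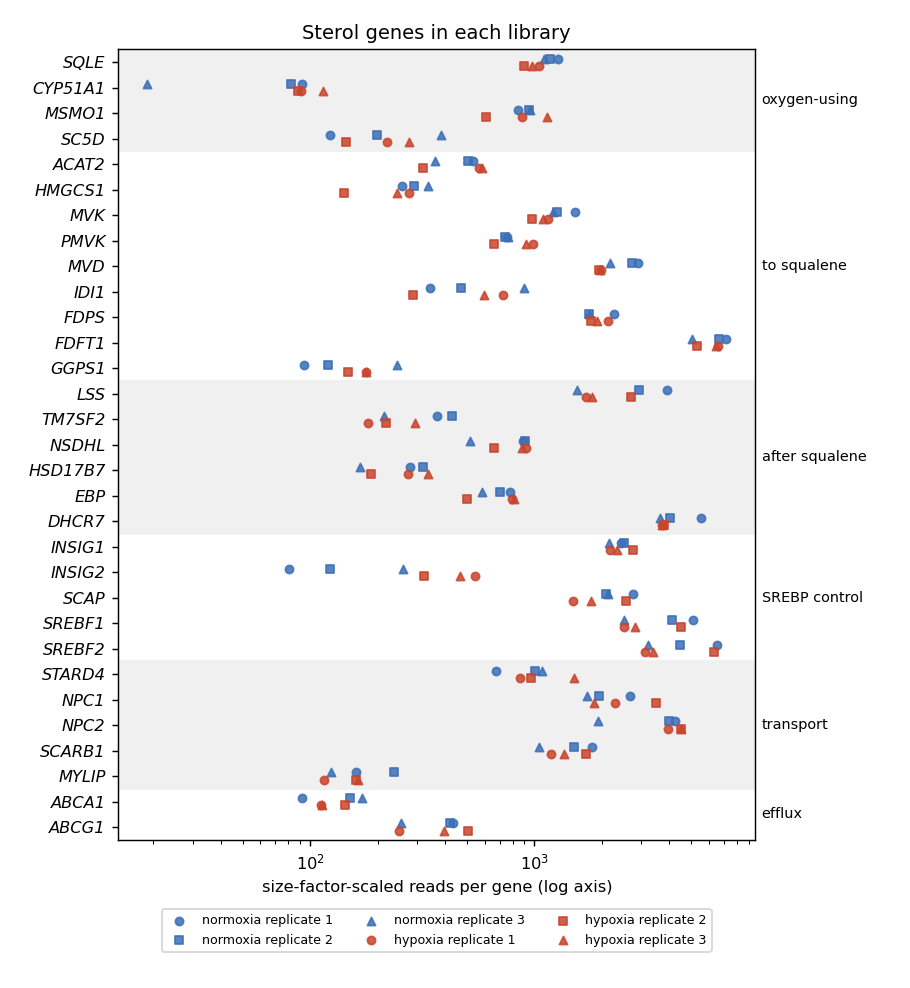
Size-factor-scaled reads (log axis) of the 31 sterol genes, one point per library, normoxia in blue and hypoxia in red, with replicate number shown by marker shape and genes grouped by role. The INSIG2 points separate by condition, at most 260 in normoxia and at least 320 in hypoxia, while most other genes overlap.

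INSIG2 encodes the second of the 2 proteins that retain SCAP in the endoplasmic reticulum. It stood at 80.5, 122 and 260 scaled reads in normoxia replicates 1, 2 and 3 and at 542, 320 and 468 in hypoxia replicates 1, 2 and 3. All hypoxia libraries were above all normoxia libraries, with the closest pair being hypoxia replicate 2 and normoxia replicate 3. The mean went from 154 ± 93.7 to 443 ± 113 (SD, n = 3 per group), a ratio of 2.88. The log2 difference was 1.61 (SE 0.43, 95% interval 0.61 to 2.61, limma), which did not pass over all genes tested (adjusted p = 0.965). INSIG2 (ENSG00000125629) spans chromosome 2, plus strand, positions 118088452-118110997 in GENCODE 29 (GRCh38), and its transcripts had the lowest GC content of the 30 tested members, 37.3%. Within normoxia its level was highest in replicate 3 and lowest in replicate 1, the libraries with the most negative and the most positive GC trend.

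After the GC correction the INSIG2 libraries of each condition drew together. On the log2 scale, relative to the mean of the 6 libraries, the normoxia libraries stood at -0.78, -0.65 and -0.98 and the hypoxia libraries at 0.86, 0.84 and 0.71. The 2 conditions were then separated by more than the range within either. The log2 difference was again 1.61, with an SE of 0.19 in place of 0.43 (95% interval 1.17 to 2.04), and INSIG2 rose past the threshold (limma, adjusted p = 0.0143). Over all 13 alternative settings the adjusted p ran from 0.0143 to 1.00 and the log2 difference from 1.25 to 2.05. DESeq2 gave an adjusted p of 0.242 and edgeR one of 1.00 (unadjusted p = 0.00907). The call therefore rests on the GC correction, and the direction was the same in all 13.

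INSIG1, the other retention protein and itself a target of SREBPs, did not show this difference. It stood at 2430, 2502 and 2148 scaled reads in normoxia and at 2177, 2757 and 2342 in hypoxia. The groups overlapped throughout, and the log2 difference was 0.04 (SE 0.19, 95% interval -0.41 to 0.48). On a per-length scale, in the units of FPKM, INSIG1 averaged 36.4 in normoxia and 37.4 in hypoxia, while INSIG2 averaged 2.19 and 6.32, so INSIG1 was the more abundant transcript of the pair in each condition. INSIG2 made up 2.97%, 4.32% and 10.0% of the summed pair in normoxia, while in hypoxia it made up 18.7%, 9.70% and 15.6%. The share in hypoxia replicate 2 was just below that in normoxia replicate 3, and a two-sided exact permutation test of the share gave p = 0.20, with 0.10 the smallest p that 3 against 3 libraries allow. These shares come from values without the GC correction, and the GC content was 37.3% for INSIG2 and 47.2% for INSIG1. The share after the correction was not computed.

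**Figure D2:**
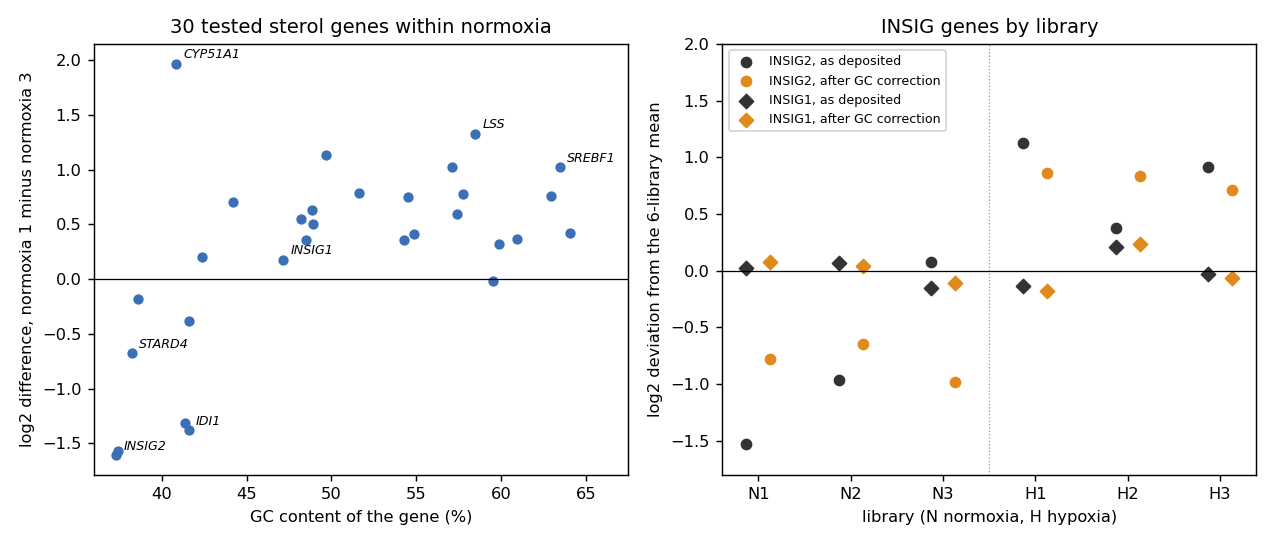
Left, for the 30 tested genes, the log2 difference between 2 normoxia libraries (replicate 1 minus replicate 3) against the GC content of the gene in percent. Right, log2 deviation of INSIG2 (circles) and INSIG1 (diamonds) from the 6-library mean in each library, as deposited (dark) and after the GC correction (orange), with the INSIG2 hypoxia libraries at 0.71 to 0.86 and its normoxia libraries at -0.98 to -0.65 after correction.

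The 4 enzymes that use oxygen gave no common change. None of SQLE, CYP51A1, MSMO1 and SC5D passed in limma, edgeR or DESeq2, nor at an unadjusted p under 0.05 in any of them. Their log2 differences had a median of -0.07, with 3 negative and 1 positive. The 15 synthesis enzymes that use no oxygen had a median of -0.03, with 8 negative and 7 positive. After the GC correction the medians were -0.07 for the 4 and -0.08 for the 15, with 3 and 9 negative. Summed on the per-length scale, the 4 enzymes stood at 35.7, 36.9 and 37.3 in normoxia and at 34.5, 26.5 and 39.6 in hypoxia. Hypoxia replicate 2 had the low sum and the other 5 sums lay close together. SQLE and MSMO1 dominated the sum, averaging 14.1 and 17.5, beside 1.27 for CYP51A1 and 2.26 for SC5D. After the GC correction the median deviations of the 4 were 0.62, 0.28 and -0.60 in normoxia and -0.19, -0.02 and 0.18 in hypoxia. Normoxia replicate 3 was then the lowest. Before the correction, the median of the 4 log2 differences was 0.17 without hypoxia replicate 2 and 0.04 without normoxia replicate 3. It stayed negative with any other library left out. It was -0.19 and -0.08 without normoxia replicate 1 or 2, and -0.10 and -0.25 without hypoxia replicate 1 or 3.

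SQLE, squalene epoxidase, catalyses the first oxygen-using step. It stood at 1272, 1169 and 1102 scaled reads in normoxia and at 1044, 902 and 980 in hypoxia. Every hypoxia library was below every normoxia library, and the ratio of means was 0.826. The log2 difference of -0.27 (SE 0.20, 95% interval -0.73 to 0.19) did not pass (limma, adjusted p = 1.00). After the GC correction the groups overlapped, with a difference of -0.30 and a larger SE of 0.27.

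CYP51A1, the cytochrome P450 that removes the 14-alpha methyl group of lanosterol, was counted at a low level. Its recovered reads numbered 87, 87 and 20 in normoxia, while hypoxia had 88, 85 and 120. The low value of normoxia replicate 3 sets the difference: it was 0.78 on the log2 scale with all libraries (95% interval -0.46 to 2.02) and 0.15 without that library. In GENCODE 29, 2844 bp or 79.4% of its exon length is shared with AC000120.2, a gene on the same strand that was not analysed here, so its count is uncertain. The pseudogenes CYP51A1P1 and CYP51A1P2 in the table held 2.87% and 4.93% as many reads.

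MSMO1, the C4-methylsterol oxidase that begins removal of the C4 methyl groups, stood at 844, 943 and 960 scaled reads in normoxia and at 882, 611 and 1144 in hypoxia. The hypoxia libraries held both the lowest and the highest value. The log2 difference was -0.10 (95% interval -0.72 to 0.51). SC5D, the sterol C5-desaturase, stood at 123, 198 and 384 in normoxia and at 220, 145 and 275 in hypoxia. Its normoxia libraries spanned the hypoxia libraries, and the log2 difference was -0.03 (SE 0.44). After the GC correction, at a GC content of 37.4%, the SE of SC5D fell to 0.22 and the difference was -0.04 (95% interval -0.54 to 0.47).

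**Figure D3:**
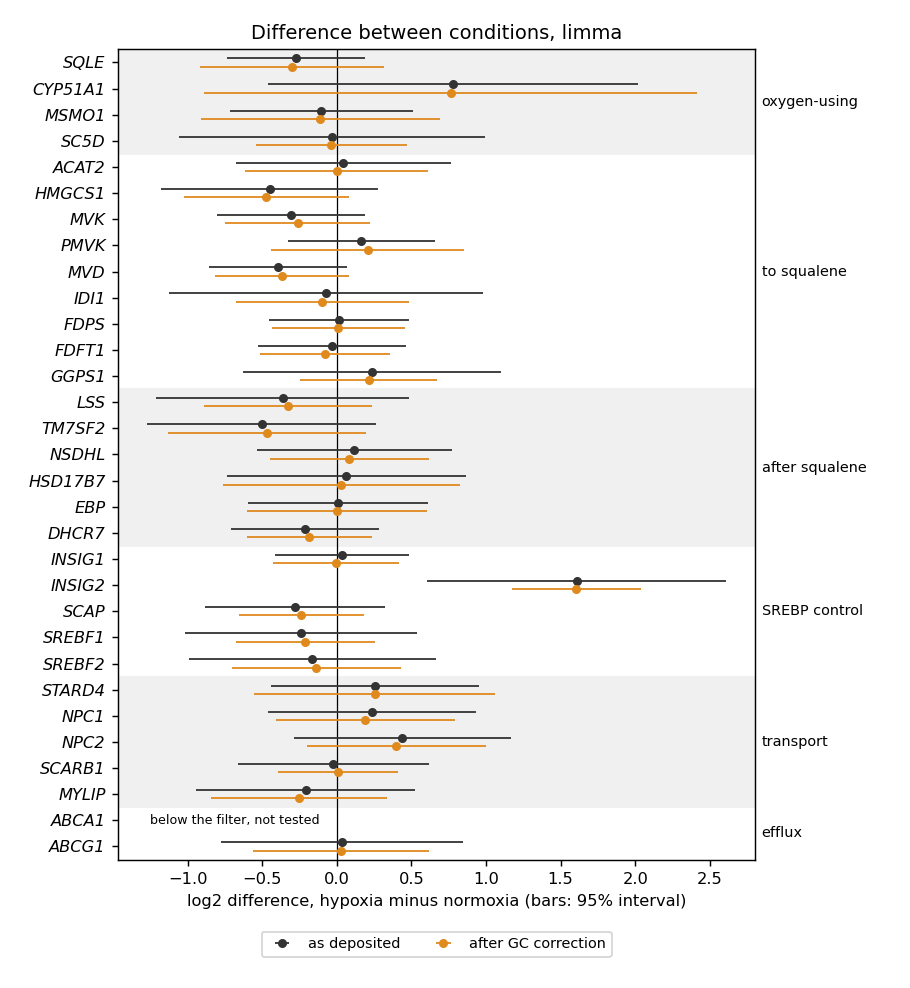
Log2 difference between hypoxia and normoxia for the 30 tested genes with 95% intervals (limma), as deposited in dark and after the GC correction in orange, grouped by role. INSIG2, at 1.61, is the only gene whose interval lies above 0, and all other intervals include 0.

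Of the 9 enzymes up to squalene, 4 had positive and 5 negative log2 differences, with a median of -0.03, and 0 passed the test. MVD, which makes isopentenyl diphosphate by decarboxylation, stood at 2898, 2735 and 2162 scaled reads in normoxia and at 1986, 1932 and 1963 in hypoxia. All hypoxia libraries were lower and lay close together. The ratio of means was 0.754 and the log2 difference -0.39 (SE 0.20, 95% interval -0.86 to 0.07, limma, adjusted p = 1.00). After the GC correction MVD was the only member with groups that did not overlap and lower values in hypoxia, at -0.37 (SE 0.20), beside 4.3% of tested genes. INSIG2 was the only member higher without overlap after it, beside 5.68%.

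MVK, mevalonate kinase, stood at 1520, 1259 and 1212 scaled reads in normoxia and at 1144, 980 and 1089 in hypoxia. The groups did not overlap, but the gap between them was small beside the spread within normoxia. Its log2 difference was -0.31 (95% interval -0.80 to 0.19), and its exons share 306 bp with MMAB on the opposite strand. HMGCS1, the synthase that makes HMG-CoA and a classical SREBP target, stood at 256, 291 and 337 in normoxia and at 275, 142 and 243 in hypoxia. Hypoxia replicate 2 was the low library. The log2 difference was -0.45 with all libraries (95% interval -1.18 to 0.28) and -0.17 without hypoxia replicate 2.

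For each of the other 6 enzymes of this stretch the means of the conditions lay within 1.14-fold of each other. PMVK, phosphomevalonate kinase, had a log2 difference of 0.17, and ACAT2, the cytosolic thiolase that starts the pathway, one of 0.04. IDI1, the isopentenyl diphosphate isomerase, stood at 341, 473 and 900 scaled reads in normoxia and at 727, 287 and 593 in hypoxia. This within-group range was far above its log2 difference of -0.07. After the GC correction, at a GC content of 41.6%, the SE of IDI1 fell from 0.45 to 0.25 and the difference was -0.10. FDPS, farnesyl diphosphate synthase, and FDFT1, squalene synthase, differed by 0.02 and -0.03. FDFT1 was the most abundant synthesis enzyme per length, at 68.0 in normoxia and 66.0 in hypoxia, and its 95% interval ran from -0.53 to 0.46. GGPS1, which makes geranylgeranyl diphosphate for the isoprenoid branch, differed by 0.24 (95% interval -0.63 to 1.10), and 37.3% of its exon length is shared with TBCE on the same strand. ACAT2 shares 397 bp with TCP1 on the opposite strand, and no source used here gives the strand setting of the counting.

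Of the 6 later enzymes that use no oxygen, 3 were positive and 3 negative, with a median of -0.10, and 0 passed. TM7SF2, a sterol C14-reductase, had the most negative difference of all members, -0.50 (SE 0.33, 95% interval -1.27 to 0.26). It stood at 368, 427 and 214 scaled reads in normoxia and at 180, 219 and 293 in hypoxia, with normoxia replicate 3 inside the hypoxia range. LSS, which cyclises squalene epoxide to lanosterol, went from 2791 ± 1183 to 2065 ± 551 (SD, n = 3 per group), and it was highest in normoxia replicate 1 and lowest in normoxia replicate 3. Its log2 difference was -0.36, and -0.07 without normoxia replicate 1. DHCR7, which makes the last reduction to cholesterol in one branch, stood at 5513, 4008 and 3642 in normoxia and at 3705, 3769 and 3698 in hypoxia. The hypoxia libraries lay within a narrow range inside that of normoxia, and the log2 difference was -0.21 (95% interval -0.71 to 0.28). NSDHL and HSD17B7, which act in removal of the C4 methyl groups, and EBP, the sterol isomerase, differed by 0.12, 0.06 and 0.01.

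None of the other 3 genes of the SREBP system, SREBF2, SREBF1 and SCAP, passed the test, and their groups overlapped. SREBF2, which encodes the SREBP that mainly drives cholesterol synthesis, stood at 6533, 4459 and 3201 scaled reads in normoxia and at 3104, 6318 and 3381 in hypoxia. Normoxia replicate 1 and hypoxia replicate 2 were the high libraries, and these 2 also had the most positive GC trends. The log2 difference was -0.16 (SE 0.36), or -0.14 (SE 0.25) after the GC correction, and it was 0.10 without normoxia replicate 1 and 0.03 without hypoxia replicate 1. SREBF1, which encodes the SREBPs tied more to fatty acid synthesis, showed the same high libraries, with 5110, 4105 and 2506 in normoxia and 2498, 4510 and 2821 in hypoxia. Its log2 difference was -0.24 (95% interval -1.02 to 0.53), and -0.02 without normoxia replicate 1. SCAP went from 2315 ± 367 to 1939 ± 549 (SD, n = 3 per group), a log2 difference of -0.28 (95% interval -0.88 to 0.32).

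Among the transport genes, 3 were positive and 2 negative, with a median log2 difference of 0.23, and 0 passed. NPC2, the lysosomal protein that hands cholesterol to NPC1, stood at 4216, 3983 and 1918 scaled reads in normoxia and at 3945, 4501 and 4520 in hypoxia. Normoxia replicate 3 was low and the other 5 libraries lay close together. The log2 difference was 0.44 with all libraries and 0.07 without normoxia replicate 3. NPC1, the membrane protein that exports cholesterol from lysosomes, differed by 0.23, and by -0.02 without hypoxia replicate 2, where it was highest. STARD4, a soluble sterol carrier, differed by 0.26 (95% interval -0.44 to 0.96). SCARB1, a receptor for high-density lipoprotein, and MYLIP, a ubiquitin ligase induced by the liver X receptors that lowers lipoprotein uptake, differed by -0.02 and -0.21.

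The efflux transporters were weakly expressed. ABCA1, which loads cholesterol onto apolipoprotein A-I, did not reach the filter on low values, at 0.682 in normoxia and 0.608 in hypoxia on the per-length scale. It stood at 92.1, 151 and 170 scaled reads in normoxia and at 112, 143 and 113 in hypoxia, and the hypoxia libraries lay inside the normoxia range. A fit with no filter gave a log2 difference of -0.11. ABCG1, which passes cholesterol to high-density lipoprotein, stood at 433, 422 and 254 in normoxia and at 250, 505 and 395 in hypoxia. Its groups overlapped, with a log2 difference of 0.03 (95% interval -0.78 to 0.85).

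Within normoxia, replicates 1 and 3 had the GC trends farthest apart, and the members differed between them by GC content. The log2 difference, replicate 1 minus replicate 3, ran from -1.61 for INSIG2 to 1.97 for CYP51A1. Of the 10 genes with a GC content under 45% it was negative in 7 (median -0.53), and of the 10 at 55% or more it was positive in 9 (median 0.68). Across the 30 genes, which share their libraries, Pearson's r with GC content was 0.56. The difference between conditions also went with GC content, with r = -0.50 over the 30 genes, -0.45 over the 29 without INSIG2, and -0.46 over the 30 after the GC correction. The GC correction made the SE smaller for 24 of the 30, and for 84.1% of all tested genes, with a median SE of the members of 0.31 before and 0.25 after. It made the SE larger for SQLE, CYP51A1, MSMO1, PMVK, STARD4 and EBP.

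Hypoxia replicate 2 was low for much of the synthesis pathway. Among the 3 hypoxia libraries it held the lowest value for 16 of the 19 synthesis enzymes, beside 40.8% of all tested genes. After the GC correction it was the lowest of the 3 for 13 of 19, beside 39.6%, and below the 6-library mean for 16 of 19, beside 49.2% of all tested genes. Its median corrected deviation was -0.49 over the 15 enzymes that use no oxygen and -0.02 over the 4 that do. Before the correction these medians were -0.26 and -0.37, so the order of the 2 groups depends on the correction. The corrected value in hypoxia replicate 2 minus the mean of replicates 1 and 3 had a median of -0.40 over the 19 enzymes, beside 0.00023 over all tested genes. In the same library the uncorrected values of NPC1, INSIG1 and ABCG1 were the highest of all 6. Its summed endothelial markers were also the highest of all 6, although KDR and ERG were not highest there. Its summed epithelial markers were the lowest of all 6 through KRT8, while KRT18 and MUC1 were not lowest there. Without hypoxia replicate 2 the median log2 difference of the 19 enzymes was 0.13 with 7 negative, in place of -0.03 with 11 negative. Leaving out another library did not move it upward. Without hypoxia replicate 1 or 3 the median was -0.10 and -0.20, and without normoxia replicate 3 it was -0.15, each with 14 negative. Without normoxia replicate 1 or 2 it was -0.04 and -0.08, each with 11 negative. The part of cell state or of library preparation in this pattern was not tested. These counts were chosen after the values were seen.

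**Figure D4:**
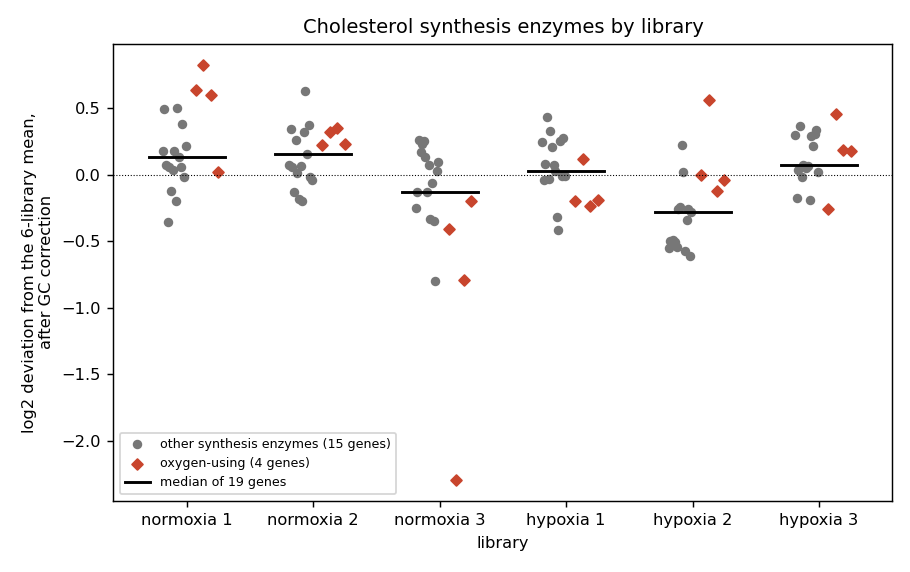
Log2 deviation from the 6-library mean, after the GC correction, of the 19 synthesis enzymes in each library, with oxygen-using enzymes as red diamonds, the other 15 as grey circles and the median of the 19 as a black line. The median in hypoxia replicate 2 is -0.28, the lowest of the 6 libraries, and CYP51A1 in normoxia replicate 3 is the point at -2.29.

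Other genes of sterol and isoprenoid metabolism were read from 4 further lists. Of their 44 tested genes, 0 passed the limma test, also after the GC correction. Before that correction 0 had an unadjusted p under 0.05 in limma, while after it ACACA did (limma, unadjusted p = 0.0317). The 13 tested lipogenic genes, which are largely SREBP targets, were negative in 10 of 13, beside 49.4% of all tested genes, with a median log2 difference of -0.09. That count was 7 without normoxia replicate 1 (median -0.06), 7 without hypoxia replicate 1 (median -0.0035) and 10 without hypoxia replicate 2 (median -0.26). In that list ACACA, the acetyl-CoA carboxylase, went from 1295 ± 215 to 931 ± 131 (SD, n = 3 per group) with no overlap between groups, a log2 difference of -0.46 (95% interval -1.04 to 0.12), or -0.51 after the GC correction (95% interval -0.96 to -0.06). Over the 4 lists, 3 of 44 genes were lower in hypoxia with no overlap, ACACA, PCYT2 and DHDDS, beside 2.71% of tested genes. With the GC correction 4 were, ACACA, FASN, NCEH1 and DHDDS, beside 4.3%, and FNTB was higher with no overlap, beside 5.68%. FASN, the fatty acid synthase, differed by -0.34 (95% interval -1.09 to 0.42). Of 11 genes of SREBP processing, sterol-regulated degradation and liver X receptors, 5 were positive and 6 negative, with a median of -0.02. The largest there were NR1H3, liver X receptor alpha, at -0.22 and MBTPS2, the protease that makes the second cut in SREBPs, at -0.13.

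In the list of sterol storage and movement 5 of 9 were positive, with a median of 0.02. CAV1, the coat protein of caveolae, differed by 0.36 (95% interval -0.28 to 0.99) and TMEM97, a sterol-regulated membrane protein, by -0.33 (95% interval -0.94 to 0.27). Among 11 genes of the isoprenoid branches 5 were positive, with a median of -0.03. PDSS1, a subunit of the synthase for the ubiquinone tail, differed by -0.50 (95% interval -1.77 to 0.78) and TRIT1, which isopentenylates transfer RNA, by 0.33 (95% interval -0.46 to 1.13). None of these 8 genes passed the test.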

How the data were processed

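Polyadenylated RNA of 3 normoxia and 3 hypoxia samples was measured. Per the submitters' processing notes the tools were CASAVA, HISAT2 2.0.5 and featureCounts 1.5.0-p3. The notes list the mouse build mm9, but all gene identifiers are human. No source used here gives the strand setting or annotation. The deposited signal is named for FPKM, but in each library 100% of values were whole multiples of 1 step (tolerance 0.05 of a step), so it is read counts per gene divided by a size factor per library, and whole reads were recovered. edgeR 4.0.16 and DESeq2 1.42.0 on these reads called 10 and 50 genes.

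The deposited values were divided by exon length (GENCODE 29, matched by identifier) and the mean library total, giving values in the units of FPKM. Genes with at least 1 in at least 3 libraries (10246 of 22153) were tested on log2(value + 0.1) with limma 3.58.1 (R 4.3.3; trend, robust, two-sided, Benjamini-Hochberg over all genes tested, threshold 0.05). This scale understates changes of low genes. Means and ratios are of the deposited values. The GC correction subtracted from each library a lowess trend (span 0.3) of its deviations from gene means over GC content. The fit was tested on simulated reads. Members and lists were chosen with earlier results of these data known. A result on 1 further gene is not reported here. All 31 members are named. In each other list the genes past the test were to be named, or the 2 with the largest difference, and up to 3 HIF targets.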

Additional observations from a re-analysis of the deposited data

How the results depend on the processing

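Across all genes the count of calls depended strongly on the setting. It was 10 with all libraries, 4 with no filter on low values, 27 after the GC correction, 50 by DESeq2 and 1 to 19 with 1 library left out (4, 5 and 19 without normoxia replicate 1, 2 or 3, and 5, 3 and 1 without hypoxia replicate 1, 2 or 3). The count of members called was 0 except after the GC correction, where it was 1, and the count of oxygen-using enzymes called was 0 throughout. With the replicate number as a block 19 genes and 0 members were called. Same-numbered libraries did not deviate together in every pair (correlations -0.40, 0.24 and 0.22). The highest correlations were 0.61 for normoxia replicate 1 with hypoxia replicate 2 and 0.50 for normoxia replicate 3 with hypoxia replicate 1. These deviations, from means of 3 libraries, also carry the GC trends. They cannot show whether same-numbered libraries came from a shared culture or batch, and the labels give only a replicate number.

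Of 533 values for 41 named genes over 13 settings, 40 changed sign, 4 of them at near-zero differences: ACAT2 (-0.0016), INSIG1 (-0.0051) and SCARB1 (0.0087) after the GC correction and FDPS (-0.0025) by DESeq2. With 1 library left out, the log2 difference of 18 genes changed sign at least once. The lowest and highest values were -0.32 and 0.13 for MSMO1, -0.40 and 0.38 for SC5D, -0.13 and 0.32 for ACAT2, -0.38 and 0.32 for IDI1, -0.054 and 0.14 for FDPS, -0.18 and 0.068 for FDFT1, -0.039 and 0.62 for GGPS1, -0.15 and 0.27 for NSDHL, -0.20 and 0.29 for HSD17B7, and -0.11 and 0.23 for EBP. They were -0.060 and 0.11 for INSIG1, -0.48 and 0.10 for SREBF2, -0.018 and 0.44 for NPC1, -0.24 and 0.15 for SCARB1, -0.42 and 0.029 for MYLIP, -0.21 and 0.30 for ABCG1, -0.58 and 0.047 for NR1H3, and -0.38 and 0.14 for MBTPS2. The cause was not tested. CYP51A1, at 20 to 120 reads per library, is the member most limited by depth.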
